A study of Mus musculus with 2 samples.

Results

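The genes described here encode the subunits of Polycomb repressive complex 2 (PRC2) and its cofactor JARID2: Jarid2, Ezh1, Ezh2, Eed, Suz12, Rbbp4, Rbbp7, Mtf2, Phf19 and Aebp2. They were chosen by name, as every probe set whose platform annotation names only 1 gene, that gene being a member. This gave 10 of 18193 genes and 35 of 34945 such probe sets, and 0 probe sets named a member together with another gene. Jarid2 drew attention to the group because its signal was far lower on the knockout array, so its ratio is a description and not evidence for anything else. The samples were c-Maf KO (c-Maf-/-) and wild-type (c-Maf+/+) macrophages from C57BL/6J fetal livers at E15.5 (embryonic day), isolated by flow cytometry as cells positive for both Mac-1 and F4/80. Each genotype had 1 array, and how many embryos were pooled for it is not stated in the labels. The series was set up to find genes that are lower in macrophages lacking c-Maf, a basic leucine zipper transcription factor.

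PRC2 places methyl groups on lysine 27 of histone H3 (H3K27), a mark of silenced genes. EZH2 or its paralog EZH1 is the catalytic subunit, EED recognises the finished mark, SUZ12 is the scaffold, and the histone-binding paralogs RBBP4 and RBBP7 complete the core. The core joins 1 of 2 sets of accessory proteins: the Polycomb-like proteins (PHF1, MTF2, PHF19), which bind DNA rich in CG dinucleotides, or JARID2 with AEBP2, which help the complex onto its targets. In blood cells Ezh2 is prominent in dividing progenitors, and Ezh1 is relatively more prominent in cells that no longer divide.

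The arrays were not at a common level, with a median signal of 2.98 on the c-Maf KO array and 4.73 on the wild-type array over 45101 probe sets. Between genes readable on both arrays, deposited values gave a median log2 ratio of -0.93. Ratios are therefore given as level-adjusted log2 ratios, c-Maf KO over wild type after quantile normalization, beside the deposited signals. A floor of 3.75 was set on this scale, and 13290 genes at or above it on at least 1 array were kept. A gene is represented by its brightest probe set. With 1 array per genotype there is no replicate error and no test, and each statement describes these arrays. The only yardstick is the spread between probe sets of the same gene, 0.69 log2 units (SD, 1592 genes with a bright signal), which contains no variation between animals, sorts or arrays. Maf itself had a signal of 0.219 on the c-Maf KO array and 47.6 on the wild-type array by its brightest probe set, at least 8.51-fold lower. For Actb, 3′ signal over 5′ signal came to 6.05 on the c-Maf KO array and 13.3 on the wild-type array, and for Gapdh to 0.90 and 1.83 in the same order.

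The sort and its purity bear on every gene below. All 8 macrophage markers reached the floor on an array (0 of 8 at least 2-fold lower, 3 higher), with a summed level-adjusted signal of 522 on the c-Maf KO array and 526 on the wild-type array. Csf1r made up most of this, at 362 and 428 in the same order. The other 7 summed to 160 on the c-Maf KO array and 97.5 on the wild-type array, and the median ratio of the list was 0.60. Itgam, which encodes the Mac-1 alpha chain used in the sort, was close to the floor on this level-adjusted scale. Its signal there was 5.04 on the c-Maf KO array and 4.52 on the wild-type array. Markers of other cells were present too. Progenitor markers summed to 116 on the c-Maf KO array and 367 on the wild-type array, and 4 of 6 were at least 2-fold lower. Hepatoblast markers summed to 801 and 227 in the same order, and 6 of 6 measured were at least 2-fold higher. Granulocyte markers summed to 10439 and 12132 in the same order (2 of 8 lower, 0 higher). S100a9 (4433 and 4229) and S100a8 (3955 on both arrays) made up most of this, and the median ratio of the list was -0.56. Erythroid markers summed to 6094 and 8580 (0 of 7 lower, 1 higher). Hbb-y made up most of this, at 5129 and 7646, and the median ratio of the list was 0.24. Lymphoid markers summed to 10.2 and 17.0 and endothelial and stromal markers to 32.3 and 25.6, with no floored ratio past 2-fold. Some of these ratios were bounds that do not exclude a larger difference, such as Cd79a (at least 1.75-fold lower) and Col3a1 (at least 1.94-fold higher). No marker had a signal of 0, and Cd3e, Rag1, Pdgfra, Pecam1 and Fgb were below the floor on both arrays. In such bulk RNA, fewer cells of a type and less RNA per cell cannot be told apart.

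The bases before the RefSeq start (GRCm38.p6) of Jarid2, Rbbp4 and Phf19 are printed because these were the 3 members whose brightest probe set differed at least 2-fold between the arrays. Each window holds the 250 bases before the start, 5′ to 3′ on the gene's strand. Capitals mark the GC box (GGGCGG), the CCAAT box (CCAAT) and an E2F octamer (TTTCGCGC, TTTGGCGC, TTTCCCGC or TTTGCCGC), on either strand.
Jarid2 (chr13:44730524-44730773, plus strand): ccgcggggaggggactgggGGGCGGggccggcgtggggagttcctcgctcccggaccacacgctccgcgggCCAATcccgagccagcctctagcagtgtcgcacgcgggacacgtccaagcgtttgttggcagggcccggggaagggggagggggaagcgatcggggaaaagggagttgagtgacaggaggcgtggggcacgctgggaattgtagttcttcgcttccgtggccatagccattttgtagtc
Rbbp4 (chr4:129335371-129335620, minus strand): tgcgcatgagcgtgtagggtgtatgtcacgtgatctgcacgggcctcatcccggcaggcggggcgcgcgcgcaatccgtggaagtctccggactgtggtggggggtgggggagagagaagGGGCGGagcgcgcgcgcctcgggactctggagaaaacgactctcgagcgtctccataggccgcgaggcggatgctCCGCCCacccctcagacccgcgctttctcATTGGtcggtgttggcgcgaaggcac
Phf19 (chr2:34913977-34914226, minus strand): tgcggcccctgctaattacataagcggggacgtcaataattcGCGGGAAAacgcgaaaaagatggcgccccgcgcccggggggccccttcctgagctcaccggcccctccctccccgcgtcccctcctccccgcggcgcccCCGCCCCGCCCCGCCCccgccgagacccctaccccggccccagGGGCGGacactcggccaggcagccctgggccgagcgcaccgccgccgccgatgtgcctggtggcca
The Jarid2 window is the first of its 2 annotated starts. It holds a GC box and a CCAAT box, the Rbbp4 window holds 2 GC boxes and a CCAAT box, and the Phf19 window holds 4 GC boxes, 3 of which overlap in a run, and an E2F octamer.

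All 10 members matched the promoter table, with 14 windows in all. A Maf half-site (TGCTGAC) was in 0 of the 14, and in 3.81% of all 32851 windows of the same length. An E2F octamer was in 2 of the 14, those of Phf19 and Suz12, against 1.86% of all windows. A CCAAT box was in 7 of the 14 (33.8% of all windows) and a GC box in 9 of the 14 (32.7%). The E-box CACGTG was in 1 of the 14 (6.02%) and the ETS core GGAAGT in 2 (19.7%). Letters in a window are no binding sites, and a window without them says nothing about the factor. The member windows had a median of 22.5 CG dinucleotides, against 6 over all windows, with a range from 1 to 37.

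Jarid2 had the lowest ratio of the 10 genes, with an _s probe set that was far dimmer on the knockout array. The _s suffix marks probes shared by several transcripts, which may belong to different genes. This probe set (1422697_s_at) had a signal of 7.34 on the c-Maf KO array and 99.8 on the wild-type array, a level-adjusted log2 ratio of -2.72, or 6.60-fold lower. Only 10 of the 13290 genes kept, Jarid2 and bounds included, had a ratio this low. The other probe sets of the gene did not share that size. A second _s probe set (1422698_s_at) had 16.6 on the c-Maf KO array and 64.7 on the wild-type array, a ratio of -0.82. The only one without a suffix (1450710_at) was dim, with 4.45 on the c-Maf KO array and 7.71 on the wild-type array, a ratio of -0.04. All 3 were designed from the same source transcript, according to the platform annotation. Their range of 2.68 log2 units was matched or exceeded by 2.24% of the 805 genes with 3 probe sets above the floor on both arrays. A low Jarid2 signal of more than 2-fold thus rested on 1 of its 3 probe sets, although the mean over all 3 was -1.19.

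Aebp2, the partner of JARID2 in the same form of the complex, had 4 probe sets that could be read. Of these, 2 were above the floor on both arrays, with ratios of -0.97 and -0.66, the latter barely so on the c-Maf KO array. The others passed the floor only on the wild-type array, so their ratios could only be below 0. The brightest Aebp2 probe set (1434080_at) had 14.1 on the c-Maf KO array and 60.3 on the wild-type array, a ratio of -0.97, just short of 2-fold. A second probe set had 2.42, below the floor, on the c-Maf KO array and 17.9 on the wild-type array, at least 3.36-fold lower. The remaining pair were dimmer, with 2.86 and 2.98 on the c-Maf KO array and 10.5 and 7.73 on the wild-type array. The last was below the floor on both arrays. None of the Aebp2 probe sets carries a suffix, and the mean ratio over the 4, bounds included, was -1.11.

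**Figure D1:**
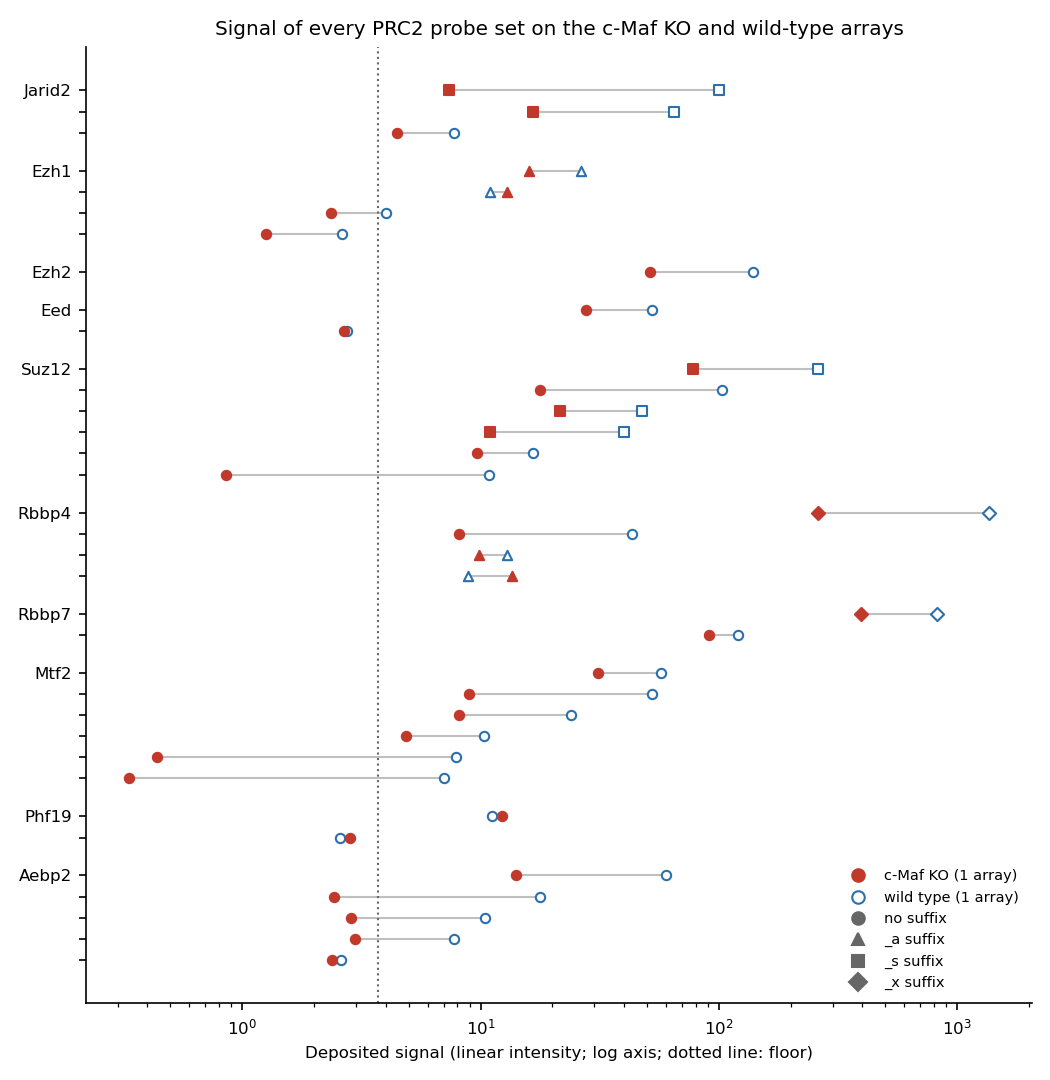
Deposited signal of all 35 probe sets of the 10 genes on the c-Maf KO array (filled red) and the wild-type array (open blue), on a log axis, with the marker shape giving the suffix class and a dotted line at the floor of 3.70 for deposited values. In 27 of the 30 probe sets that were kept the point of the c-Maf KO array lies left of that of the wild-type array, as it does in 78.4% of all kept single-gene probe sets.

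The catalytic subunits were within 2-fold by their brightest probe sets. Ezh2, the methyltransferase of dividing cells, has 1 probe set (1416544_at), with a signal of 51.7 on the c-Maf KO array and 139 on the wild-type array. Its ratio of -0.25 was close to the median of -0.19 for the genes in its signal bin, the brightest of 5. Ezh1 had 16.0 on the c-Maf KO array and 26.4 on the wild-type array by its brightest probe set (1449023_a_at), a ratio of 0.36. Its other readable probe set (1418290_a_at) had 12.9 on the c-Maf KO array and 11.0 on the wild-type array, a ratio of 1.20 and so 2.29-fold higher. Both are _a probe sets, which recognise alternative transcripts of the gene. The other 2 Ezh1 probe sets were below the floor of the level-adjusted scale on both arrays.

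Eed, the reader of the methyl mark, had by its brighter probe set (1448653_at) 27.8 on the c-Maf KO array and 52.5 on the wild-type array, a ratio of 0.24, and its second probe set was below the floor on both arrays. The ratios of Ezh2, Ezh1 and Eed by their brightest probe sets thus ran from -0.25 to 0.36, while the other readable Ezh1 probe set was at 1.20.

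Suz12, the scaffold, was read by 6 probe sets, of which 4 had a ratio below 0 and 2 at least 2-fold lower. The brightest (1420021_s_at) had 78.1 on the c-Maf KO array and 262 on the wild-type array, a ratio of -0.55. The brightest one without a suffix (1449661_at) had 17.8 on the c-Maf KO array and 103 on the wild-type array, a ratio of -1.40. The dimmest had 0.857 on the c-Maf KO array and 10.9 on the wild-type array, at least 2.17-fold lower. In contrast, an _s probe set with 21.5 on the c-Maf KO array and 47.6 on the wild-type array had a ratio of 0.01. The Suz12 ratios ran from -1.40 to 0.22, and the mean over all 6, a bound included, was -0.60.

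Rbbp4 and Rbbp7 encode close paralogs that also serve in histone deacetylase and chromatin assembly complexes. Both had their highest signal from an _x probe set, in which some probes may bind other transcripts. That of Rbbp4 (1434892_x_at) had 262 on the c-Maf KO array and 1361 on the wild-type array, a ratio of -1.46, or 2.76-fold lower. The Rbbp4 probe set without a suffix (1456260_at) was at 8.15 on the c-Maf KO array and 43.2 on the wild-type array, a ratio of -1.35. These 2 probe sets of different class gave like ratios. The 2 _a probe sets of Rbbp4 pointed the other way. One had 13.5 on the c-Maf KO array and 8.84 on the wild-type array, a ratio of 1.55. The other had 9.88 on the c-Maf KO array and 13.0 on the wild-type array, a ratio of 0.57. The range of 3.01 log2 units within Rbbp4 was the widest of the 10 genes, and 1.45% of the 275 genes with 4 such probe sets had one as wide. The mean over the 4 was -0.17.

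Rbbp7 was nearly level by its _x probe set, with 397 on the c-Maf KO array and 824 on the wild-type array, a ratio of -0.13. Its probe set without a suffix had 91.1 on the c-Maf KO array and 121 on the wild-type array, a ratio of 0.76. Among probe sets with no suffix the ratio was -1.35 for Rbbp4 and 0.76 for Rbbp7, and among _x probe sets -1.46 and -0.13 in the same order. The yardstick is a spread around the mean of a gene and not the spread of a difference between 2 ratios. The _a probe sets of Rbbp4, at 0.57 and 1.55, lay on either side of 0.76, so how the paralogs compare depends on the probe set. Rbbp7 has no _a probe set to set beside those of Rbbp4.

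Of the Polycomb-like genes, Phf1, which is not among the 10, had 5.59 on the c-Maf KO array and 14.2 on the wild-type array, a ratio of -0.47. Mtf2 was read by 6 probe sets without a suffix, with ratios from -1.47 to 0.29. The brightest (1418516_at) had 31.0 on the c-Maf KO array and 57.1 on the wild-type array, a ratio of 0.29. The next (1418514_at) had 8.95 on the c-Maf KO array and 52.2 on the wild-type array, a ratio of -1.47. These 2 and a further pair, at -0.54 and -0.29, were designed from the same source transcript. The dimmest 2 had signals of 0.437 and 0.336 on the c-Maf KO array, against 7.93 and 7.02 on the wild-type array, and give only bounds of at least 1.62-fold and 1.45-fold. The mean over all 6, bounds included, was -0.54, so Mtf2 changed sign with the choice of probe set.

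Phf19 was the only member whose brightest probe set was brighter on the knockout array as deposited, with 12.3 on the c-Maf KO array and 11.2 on the wild-type array. Its level-adjusted ratio was 1.09, or 2.13-fold higher, and it was -0.10 when the arrays were scaled to the hybridisation controls. Its second probe set was below the floor on both arrays, so the value rests on 1 probe set.

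**Figure D2:**
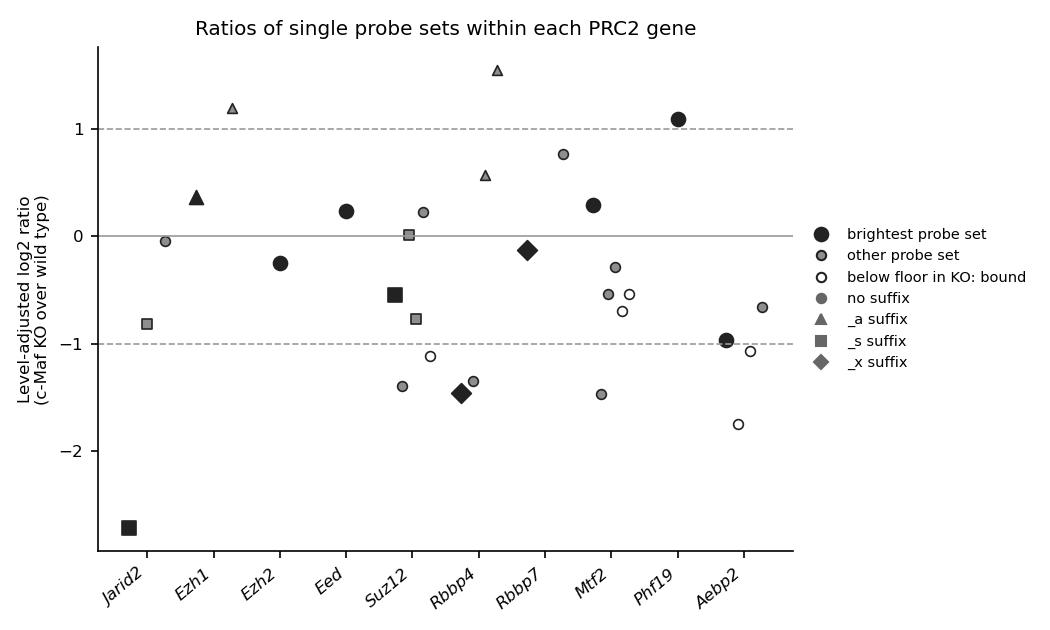
Level-adjusted log2 ratio (c-Maf KO over wild type) of each of the 30 readable probe sets, by gene, with large dark markers for the brightest probe set, open markers for bounds and dashed lines at 2-fold. The ratios of Jarid2 run from -2.72 to -0.04, those of Mtf2 from -1.47 to 0.29 and those of Rbbp4 from -1.46 to 1.55.

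Counted by brightest probe set, 2 of the 10 members (Jarid2 and Rbbp4) were at least 2-fold lower, 1 (Phf19) was at least 2-fold higher and 7 were within 2-fold. Over all genes kept, 9.05% were at least 2-fold lower and 8.34% higher. The median ratio of the members was -0.19, against 0.01 over all genes. Of the 10 members, 5 were in the brightest of 5 signal bins. These 5, Jarid2 among them, had a median of -0.55, against -0.19 over all genes of that bin. The others were Rbbp4 (-1.46), Suz12 (-0.55), Ezh2 (-0.25) and Rbbp7 (-0.13). Jarid2, which drew attention to the group, is part of every member count and median in this paragraph, so these are descriptions only. As deposited, 6 of 10 members were at least 2-fold lower and 0 higher, against 39.8% and 1.19% of all genes. Of the 30 member probe sets readable on at least 1 array, 8 were at least 2-fold lower and 3 higher, against 8.82% and 8.71% of all single-gene probe sets. Those 8 came from Jarid2, Suz12, Rbbp4, Mtf2 and Aebp2, and probe sets of 1 gene are no independent readings of the complex. Of the 30, 5 passed the floor on the wild-type array only and could not have been counted as higher. Bounds of this kind from Suz12 and Aebp2 were among the 8. The other 5 of the 35 were below the floor on both arrays.

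**Figure D3:**
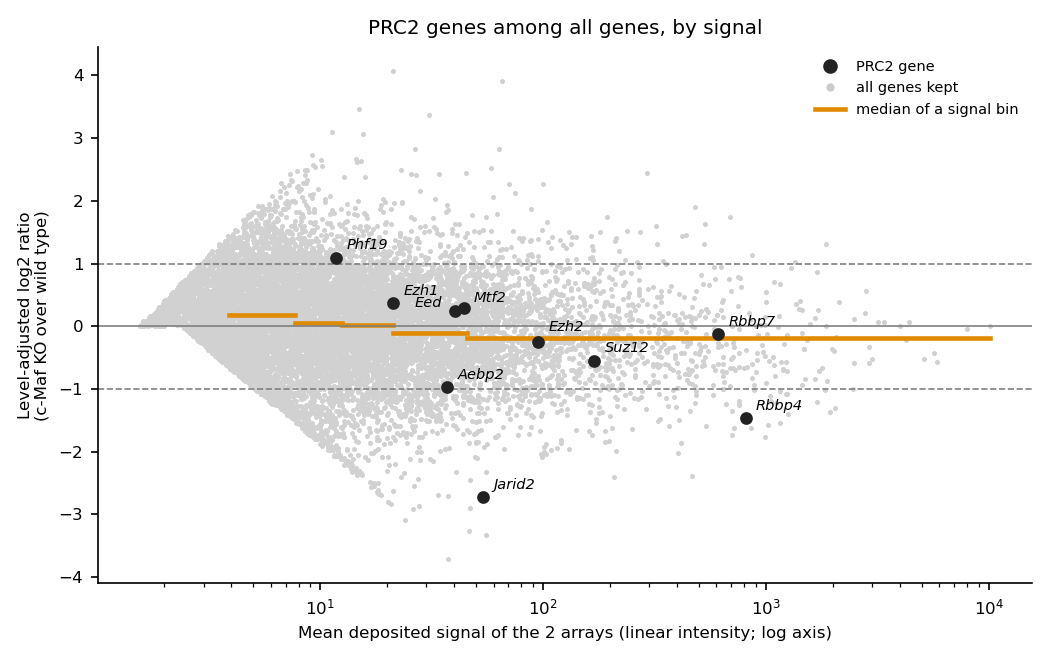
Level-adjusted log2 ratio (c-Maf KO over wild type) against the mean deposited signal (log axis) for the 13290 genes kept (grey), with the 10 members in black, medians of 5 signal bins in orange and dashed lines at 2-fold. Jarid2 lies apart at -2.72 and Rbbp4 at -1.46, and the orange median of the brightest bin lies at -0.19.

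By suffix class, 6 of the 19 member probe sets without a suffix were at least 2-fold lower and 1 was higher, against 8.76% and 8.16% of all such probe sets. Those 6 include the bounds of Suz12 and Aebp2, which could only fall on the lower side. Of the 4 _a probe sets 0 were lower and 2 higher (7.49% and 11.7% of all). Of the 5 _s probe sets 1 was lower and 0 higher (11.4% and 8.21% of all). Of the 2 _x probe sets 1 was lower and 0 higher (9.74% and 9.16% of all). Over all single-gene probe sets the median ratio was 0.01 without a suffix, 0.14 for _a, -0.08 for _s and -0.01 for _x. Among the 7 members with at least 2 probe sets above the floor on both arrays, 4 (Suz12, Rbbp4, Rbbp7 and Mtf2) had ratios on both sides of 0. The 3′ to 5′ signal ratios of Actb and Gapdh given above differed between the arrays, and their part in this disagreement was not tested.

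Genes of the wider Polycomb system were mixed. Among 4 measured genes of other PRC2 accessory proteins 0 were at least 2-fold lower and 1 higher, with a median of -0.11. The higher one, Lcorl, was dim and is named after its value was seen. It had 9.08 on the c-Maf KO array and 5.93 on the wild-type array, a ratio of 1.46. Of its 3 readable probe sets, 2 pointed the other way. Lcor, whose locus also encodes a PRC2 accessory protein, was at -0.68 (21.8 on the c-Maf KO array and 77.9 on the wild-type array). Of 20 measured genes of PRC1, the complex that ubiquitinates histone H2A and reads the PRC2 mark, 3 were lower and 1 higher, with a median of -0.13. The 3 lower genes were dim and are named after their values were seen: Pcgf6 (-1.76), Phc3 (at least 2.60-fold) and L3mbtl2, also known only by a bound. The higher one was Yaf2, a subunit of variant PRC1, with 25.8 on the c-Maf KO array and 23.0 on the wild-type array, a ratio of 1.27, although its second readable probe set pointed the other way. Phc2, a Polyhomeotic subunit (-0.96), Pcgf5 (-0.84) and Kdm2b, which brings a variant PRC1 to CG-rich DNA (-0.68), were within 2-fold, and Phc2 and Kdm2b each had 1 of 2 readable probe sets of the opposite sign.

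Genes of enzymes that oppose PRC2 or PRC1, together with those of partner proteins, gave 1 lower and 0 higher of 7. Kdm6a, an H3K27 demethylase, had 20.5 on the c-Maf KO array and 102 on the wild-type array, a ratio of -1.16, and all 3 of its readable probe sets were below 0. Bap1, the deubiquitinase that removes the PRC1 mark, was at -0.84, its cofactor gene Asxl1 at -0.39 and Foxk2 at 0.55. Opposite signs were found in 1 of 2 readable probe sets of Bap1, 1 of 3 of Asxl1 and 4 of 5 of Foxk2. Of 11 Trithorax-type genes, which encode histone H3 lysine 4 methyltransferase complexes, 2 were lower and 0 higher. Rbbp5, a core subunit of these complexes, had 4.45 on the c-Maf KO array and 35.9 on the wild-type array, a ratio of -2.08 from its only readable probe set. Kmt2d, a methyltransferase, was at -1.77, although its other readable probe set pointed the other way. Kmt2c was at -0.72 and Dpy30 at 0.88.

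JARID2 carries an ARID and a catalytically inactive Jumonji domain, so the KDM5 demethylases and other ARID genes were set beside it. Of these 12, 3 were lower and 1 higher, with a median of -0.65. Arid5a had 0.623 on the c-Maf KO array and 25.1 on the wild-type array, at least 4.64-fold lower. Arid1a, a subunit of SWI/SNF remodelers, was at -1.23 and the demethylase gene Kdm5a at -1.02, and Arid4b was at 1.37. The opposite sign was found in 1 of 2 readable probe sets of Arid1a, 2 of 5 of Kdm5a and 3 of 4 of Arid4b. Arid5a had only 1 readable probe set.

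RBBP4 and RBBP7 also belong to the NuRD, SIN3 and CAF-1 complexes. Of 15 measured genes of those complexes, 1 was lower and 3 higher, with a median of 0.14. Chd3, a NuRD remodeler, had 12.4 on the c-Maf KO array and was below the floor at 2.07 on the wild-type array, at least 4.79-fold higher. Mta3 had 13.9 on the c-Maf KO array and 5.66 on the wild-type array, a ratio of 2.19. Chd4 was at 1.23 and the deacetylase gene Hdac2 at -0.97. Of the readable probe sets, 1 of 3 of Mta3, 2 of 3 of Chd4 and 1 of 2 of Hdac2 had the opposite sign.

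Of 16 genes that PRC2 silences in many tissues, 7 had a brightest probe set below the floor of the level-adjusted scale on both arrays, namely Cdkn2b, Foxd3, Gata4, Gata6, Hoxa7, Hoxc4 and Wnt5a. Another probe set of Gata4 and of Gata6 reached the floor on the wild-type array. Of the other 9, 0 were at least 2-fold lower and 3 higher, with a median of 0.43. As deposited 2 were lower and 0 higher, with a median of -0.30. Hoxa5 had 16.7 on the c-Maf KO array and 15.0 on the wild-type array, a ratio of 1.19, and the growth inhibitor gene Cdkn1c was at 0.81. The methyl mark was not measured.

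Ezh2 and Eed are targets of E2F factors in dividing cells, so cell division genes were set beside them. Of 17 measured, 1 was lower and 0 higher, with a median of -0.50. As deposited the number lower was 12, where 39.8% of all genes were lower. It was 8 with equal medians and 0 with ratios centred within 20 signal bins. The shares over all genes under these last settings are not given here, so those counts show only that the number followed the scaling. Rrm2, a ribonucleotide reductase subunit, was at -1.09 with 2 of its 3 probe sets pointing the other way, Mcm2 at -0.89, Mcm3 at -0.84 and the proliferation marker Mki67 at -0.75. The ratio of Ezh2, -0.25, was within the range of these genes. On the same array the progenitor markers were lower (4 of 6), and their part in the PRC2 ratios was not tested.

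**Figure D4:**
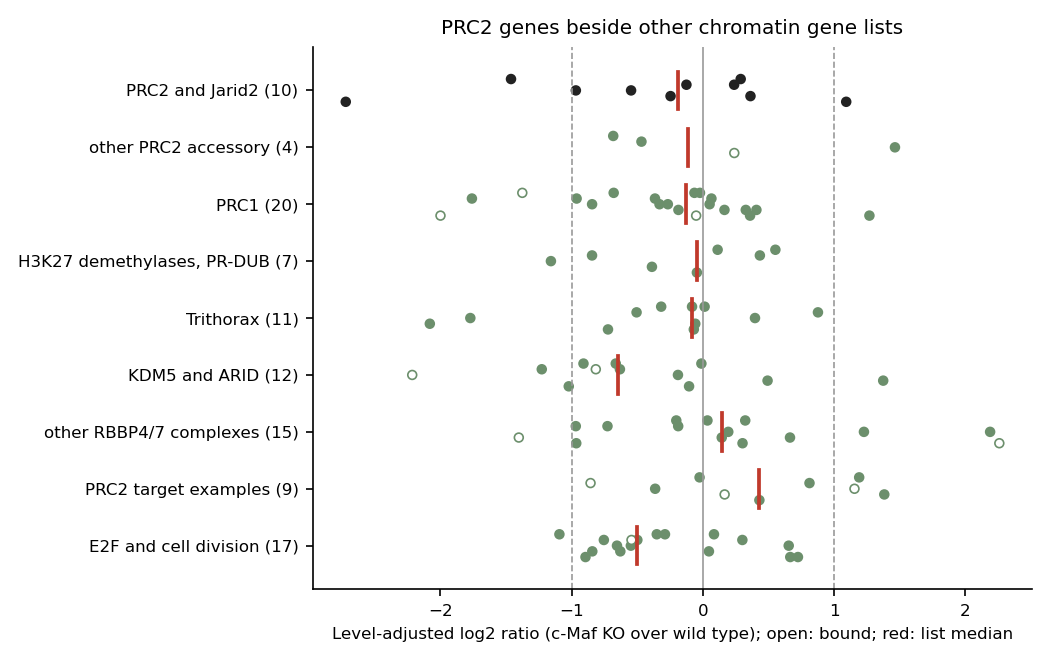
Level-adjusted log2 ratio (c-Maf KO over wild type) of each measured gene in the PRC2 list and 8 other lists, with the number measured in brackets, open points for bounds, red bars for list medians and dashed lines at 2-fold. The PRC2 median of -0.19 lies among those of the other lists, which run from -0.65 to 0.43, and Jarid2 is the lowest single point.

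How far the member ratios depend on the scaling and the choice of probe set is shown gene by gene. Jarid2, Suz12, Ezh2, Rbbp4 and Aebp2 were below 0 under all 12 alternatives that give a ratio. These are no independent readings, since most reuse the brightest probe set. Values as deposited, equal medians and the hybridisation controls gave each of these genes a lower ratio, so they could not turn its sign. Among single probe sets, 2 of 6 of Suz12 and 2 of 4 of Rbbp4 had a ratio above 0. Jarid2 ran from -4.01 with hybridisation controls as the reference to -0.04 with probe sets lacking a suffix. Ezh1, Eed, Rbbp7, Mtf2 and Phf19 had either sign.

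**Figure D5:**
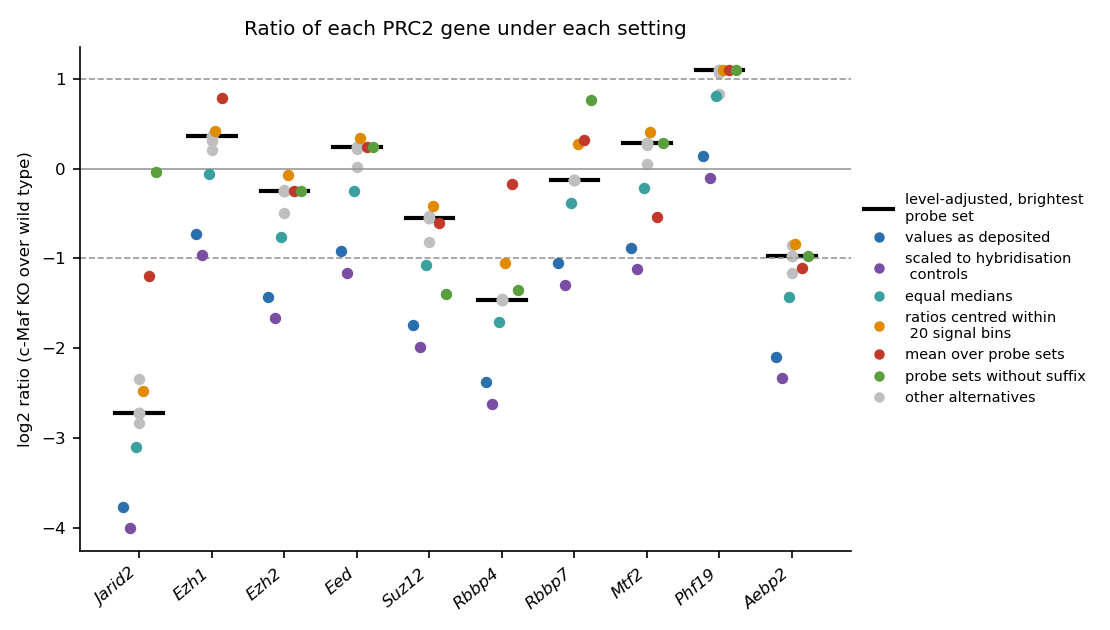
Log2 ratio (c-Maf KO over wild type) of each of the 10 genes as reported (black bar) and under each alternative scaling, floor or choice of probe set (points), with dashed lines at 2-fold. Values as deposited and those scaled to the hybridisation controls lie lowest for most genes, and for Jarid2 the value from probe sets without a suffix lies near 0.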

How the data were processed

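RNA labelled with biotin was hybridised to Affymetrix GeneChip arrays, per the labels' protocols. What was deposited is a linear intensity for each probe set and array. Summarisation, scaling and detection calls are not given in the sources used here.

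Probe sets were named from the platform annotation, and 34741 of the 34945 with 1 gene were matched by Entrez identifier to RefSeq (GRCm38.p6). Another 932 with several genes and 9160 with none in the annotation used went unnamed, and 64 were controls. Both arrays were quantile-normalized to the geometric mean of their sorted intensities and floored at their pooled median (percentile 50) before log2 ratios were taken. A value below the floor on 1 array gives a bound ("at least"). Bright means at least 4 times the floor. Signals of different probe sets are not compared as levels.

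Members and lists were chosen with earlier results of these data known, as were the motifs. From each other list the up to 4 bright genes of largest absolute ratio were named. The calculation was tested on simulated data. Python 3.11.15, numpy 2.4.6 and pandas 2.3.3 were used. Alternatives covered scaling, floor, probe set, brightness and threshold.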

Additional observations from a re-analysis of the deposited data

How the results depend on the processing

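No paired analysis was possible because each genotype had 1 array, and no array could be left out. The counts of members at least 2-fold lower and higher were 2 and 1 as reported. They were 6 and 0 with values as deposited, 4 and 0 with equal medians, and 8 and 0 with hybridisation controls as the reference. They were 3 and 1 with ratios centred on the median gene and 2 and 0 with the floor as a pseudocount. At 4-fold in place of 2-fold they were 1 and 0. The members' median, -0.19 as reported, was -1.24 as deposited and -1.48 with the hybridisation controls, and it was 0.10 with ratios centred within 20 signal bins. Over all genes the share at least 2-fold lower was 9.05% as reported, 39.8% as deposited and 49.5% with the hybridisation controls. Shares over all genes under the other settings are not given here, so the member counts there describe the setting and not the members. Of the genes at least 2-fold lower or higher as reported, the hybridisation controls turned Phf19 (-0.10), Yaf2 (-0.077), Chd4 (-0.16) and Hoxa5 (-0.085) in sign, means over probe sets Arid4b (-0.18), Chd4 (-0.18) and Rrm2 (0.0080), and probe sets without a suffix Arid4b (-1.46), Chd4 (-0.87) and Rrm2 (0.48). Of the genes within 2-fold, Ezh1, Eed and Mtf2 turned with values as deposited, equal medians and the hybridisation controls, and Foxk2, Dpy30 and Cdkn1c with the first and last of these. Rbbp7 turned within signal bins, with means and without suffixed probe sets. Mtf2 and Foxk2 turned with means, and Phc2, Kdm2b, Bap1, Hdac2 and Mcm2 without suffixed probe sets. The target list had 2 members lower and 0 higher as deposited, and the cell division list 12 and 0. Ezh1 has no value without suffixed probe sets. The cause was not tested. Without detection calls or replicates, a signal near the floor shows only a bound.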

Other observations

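Some probe sets of a member that were designed from the same source transcript gave different ratios. The 4 such probe sets of Mtf2 ran from -1.47 to 0.29 in level-adjusted log2 ratio, the 3 of Jarid2 from -2.72 to -0.04 and 3 of Suz12 from -1.12, a bound, to 0.01. Another pair of Suz12 probe sets gave -0.77 and 0.22, and the pair of Ezh1 gave 0.36 and 1.20. The median range over 3489 genes with at least 2 probe sets above the floor on both arrays was 0.82.

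Maf, the deleted gene, was far dimmer on the knockout array by 2 of its 6 probe sets. By its next brightest probe set it had 0.143 on the c-Maf KO array and 21.0 on the wild-type array (deposited signal), at least 3.90-fold lower, while its others had wild-type signals of at most 5.50.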
